A study of Caenorhabditis elegans with 9 samples.

Results

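Low heme supply was examined by setting *Caenorhabditis elegans* grown with 4 uM hemin against worms grown with 20 uM hemin. Hemin is the chloride of iron(III) protoporphyrin and was the heme source in mCeHR-2, a liquid medium for culture without bacteria. The members were the arrays whose titles name these 2 concentrations: 3 arrays at 4 uM (replicates A, B and C) and 3 at 20 uM (A, B and C), which are 6 of the 9 arrays of the series. The 3 arrays at 500 uM were used for the spread and are given where a level there bears on a gene. All groups shared the organism, the medium and the harvest as larvae at the late L4 stage, after synchronised larvae had been put back into fresh medium, and the labels give no strain, mutation or agent other than hemin. Each array held total RNA of 1 biological replicate of whole worms, so fewer cells of a type and less RNA per cell cannot be told apart.

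Animals of this species lack the enzymes of heme synthesis and live on heme taken up by the intestine. HRG-4 carries heme across the apical membrane of the intestinal cell, HRG-1 releases it from lysosome-related vesicles into the cytosol, and the ABC transporter MRP-5 exports it on the basal side. The small secreted protein HRG-3 then carries heme to other tissues and to developing oocytes, and HRG-7, a secreted relative of aspartic proteases, takes part in signalling of heme status between intestine and neurons. Several of these genes were first found because their transcripts respond to heme.

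The values are the authors' deposited log2 levels, 1 per probe set, a group of short probes read together. Of 22548 worm probe sets, array controls left out, the 16911 brightest were tested with limma, a linear model with moderated variances. A probe set is called here when its p-value, adjusted by the Benjamini-Hochberg method over all 16911, was under 0.05. Differences are log2 values, 4 minus 20 uM, with limma's standard error (SE). They rest on 3 arrays per group unless replicate A of 4 uM is said to be left out.

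Array A of 4 uM stood apart. Each array was set against the mean of the other arrays of its group. For array A of 4 uM these deviations had an SD of 0.431, against 0.150 to 0.314 on the other 8 arrays. The values of 4 uM B and C (0.209 and 0.314) have array A in that mean. The median level of array A was 5.57, against 5.43 to 5.47. Lists of tissue markers had 0 members called by limma for intestine (7 tested, 3 with an unadjusted p under 0.05), body muscle (5), pharynx (5), neurons (6) and germ line (6, with 0 under 0.05 in these last 4 lists), and for sperm (6 tested, 2 under 0.05). Of 7 oocyte markers 3 were higher (*perm-2*, *puf-5* and *egg-1*), against 0.68% of all tested sets. Of 7 hypodermis markers 1 was higher (the adult collagen *col-19*). Without array A of 4 uM these were 3 and 1 again, 2 hypodermis markers (*dpy-7* and *wrt-2*) and 1 intestine marker (*spp-1*) were lower, and 0 were called in the other lists just named. Of the 6 markers of the L4 stage and molt 0 were called and 2 had an unadjusted p under 0.05, against 8.7% of all tested sets. Of the 4 adult markers 2 were higher at 4 uM, against 0.68% of all tested sets, as described below with the yolk genes.

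At 4 uM hemin 115 probe sets were higher and 39 were lower than at 20 uM. These 154 are 0.911% of those tested, 0.68% for higher and 0.231% for lower, and they stand for 97 named genes that were higher and 37 that were lower. In all 154 the 4 uM arrays lay wholly above or wholly below the 20 uM arrays, a pattern that 13.4% of all tested probe sets shared. The median size of the difference was 1.09, or 2.12-fold, among the higher sets and 0.99, or 1.99-fold, among the lower ones. Differences of at least 2-fold were found in 61 higher and 19 lower sets, and of at least 4-fold in 15 and 5. The median difference over all tested sets was 0.02.

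Without array A of 4 uM the count was 315, or 1.86% of those tested, with 202 higher (1.19%) and 113 lower (0.668%). Of the 154 sets called with all arrays, 152 were called there too, and 0 of the sets called in either fit changed sign. Calls also depended on other single arrays: 65 of the 154, 49 higher and 16 lower, were called whichever of the 9 arrays was left out. A call is said below to need an array when it was lost with that array left out, and the highest adjusted p reached in this way follows in parentheses. Called genes for which no such array is named belong to these 65. Of 129 genes called on their brightest set, 65 lost the call in a fit of only the 6 arrays of 4 and 20 uM. Such losses, and those under other settings of the processing, are named below for some genes only. A call with no such remark may be lost there too.

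**Figure D1:**
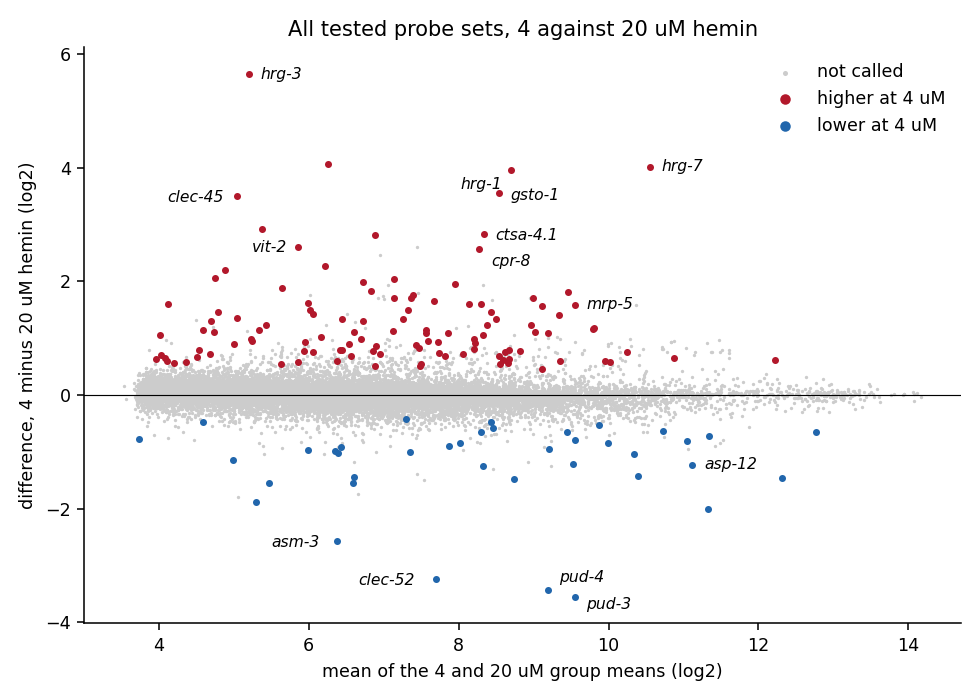
Difference between 4 and 20 uM hemin (log2) against the mean of the group means (log2) for the 16911 tested probe sets, with the 115 higher sets in red, the 39 lower sets in blue and those not called in grey. The largest difference is that of *hrg-3* (5.66), and the lowest points are *pud-3* (-3.56) and *pud-4* (-3.43).

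Transcripts of the heme transport pathway held the 3 largest rises among named genes. Of the 10 genes listed 7 were matched to a probe set, all 7 were tested, and 4 rose (*hrg-1*, *hrg-3*, *hrg-7* and *mrp-5*), against the 0.68% of all sets that were higher. Without array A of 4 uM 6 of 7 rose, against 1.19% of all sets, and the 7th, *hrg-10*, differed by 0.18 (adjusted p = 0.574). The list is drawn from genes named for this response, so its direction is no independent evidence.

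The gene of the vesicular heme importer, *hrg-1* (R02E12.6), read 10.55, 10.75 and 10.74 on the 4 uM arrays, against 6.58, 6.82 and 6.74 on the 20 uM arrays. The groups lay far apart and each was tight, replicate A of 4 uM included. The difference was 3.97 (SE 0.11, limma adjusted p = 1.99e-07), or 15.7-fold. At 500 uM *hrg-1* read 6.53, 6.75 and 6.84, which overlaps the 20 uM arrays.

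Its paralogue at the intestinal surface, *hrg-4* (F36H1.5), read 6.35, 8.89 and 9.33 at 4 uM, against 5.68, 5.68 and 5.82 at 20 uM. All 4 uM arrays were above all 20 uM arrays, but replicate A lay close to the 20 uM level. With all arrays the difference of 2.46 (SE 0.60) was not called (adjusted p = 0.144), and without replicate A it was 3.38 (SE 0.15, adjusted p = 2.83e-06). At 500 uM the level was 4.69, 5.09 and 4.90, below every 20 uM array.

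The exporter gene *mrp-5* (F14F4.3) read 10.13, 10.39 and 10.51 at 4 uM, against 8.71, 8.70 and 8.87 at 20 uM. Its second probe set read 8.21, 8.15 and 8.44 at 4 uM, against 6.22, 6.67 and 6.63 at 20 uM. Neither set had overlapping groups, and both rose, by 1.59 (SE 0.12) and 1.76 (SE 0.13), each with an adjusted p of 0.000133. The 54 measured ABC transporter genes held 49 tested ones, of which *mrp-5* alone was called with all arrays (2.04%, against 0.911% of all sets).

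The secreted heme carrier gene *hrg-3* (F58E6.7) read 7.09, 8.41 and 8.59 at 4 uM, against 2.41, 2.42 and 2.27 at 20 uM. Replicate A was the lowest of its group and still far above the 20 uM arrays, which lay near the lowest value of the table (2.02). The difference was 5.66 (SE 0.31, adjusted p = 1.41e-05), and without replicate A it was 6.13 (SE 0.09). At 500 uM *hrg-3* read 2.58, 2.47 and 2.57, also near that lowest value. Its levels at 20 and 500 uM were below the lower quartiles of those arrays (3.700 to 3.773). It thus passed the brightness filter through its 4 uM level, and it was also called with no filter. No detection calls were used, so the level at 20 and at 500 uM may be a bound and the difference a lower bound.

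The gene of the secreted protease relative, *hrg-7* (C15C8.3), read 12.44, 12.58 and 12.66 at 4 uM, against 8.24, 8.68 and 8.73 at 20 uM. The groups were separate by more than the whole spread of either, and the rise was 4.01 (SE 0.14, adjusted p = 6.05e-07), or 16.1-fold. The 500 uM arrays read 7.41, 7.27 and 7.56, below all 20 uM arrays. Thus *hrg-7* and *hrg-4* were ordered by dose over all 3 groups, with the highest level at 4 uM, while *hrg-1* and both *mrp-5* sets overlapped between 20 and 500 uM and *hrg-3* was near the bottom of the range in both. The order between 20 and 500 uM is described and was not tested here.

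The 2 remaining genes, *hrg-9* (R186.1), whose product mobilises stored heme, and its paralogue *hrg-10*, were nearer to 0. For *hrg-9* the arrays read 4.67, 5.5 and 5.4 at 4 uM, against 4.33, 4.63 and 4.49 at 20 uM. The groups did not overlap, with replicate A just above the highest 20 uM array. The difference of 0.70 (SE 0.19) was not called (adjusted p = 0.199), and without replicate A it was 0.96 (SE 0.10, adjusted p = 0.000788). Of 11 tested genes with an hrg symbol 3 rose (27.3%, against 0.68% of all sets). Without array A of 4 uM 5 rose (45.5%, against 1.19%). Those that rose are members of the list above, and the symbol itself is given for this response. These shares too are no independent evidence. The genes *hrg-11.2*, *hrg-11.3*, *hrg-11.4*, *hrg-13* and *hrg-14* were called in neither fit.

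**Figure D2:**
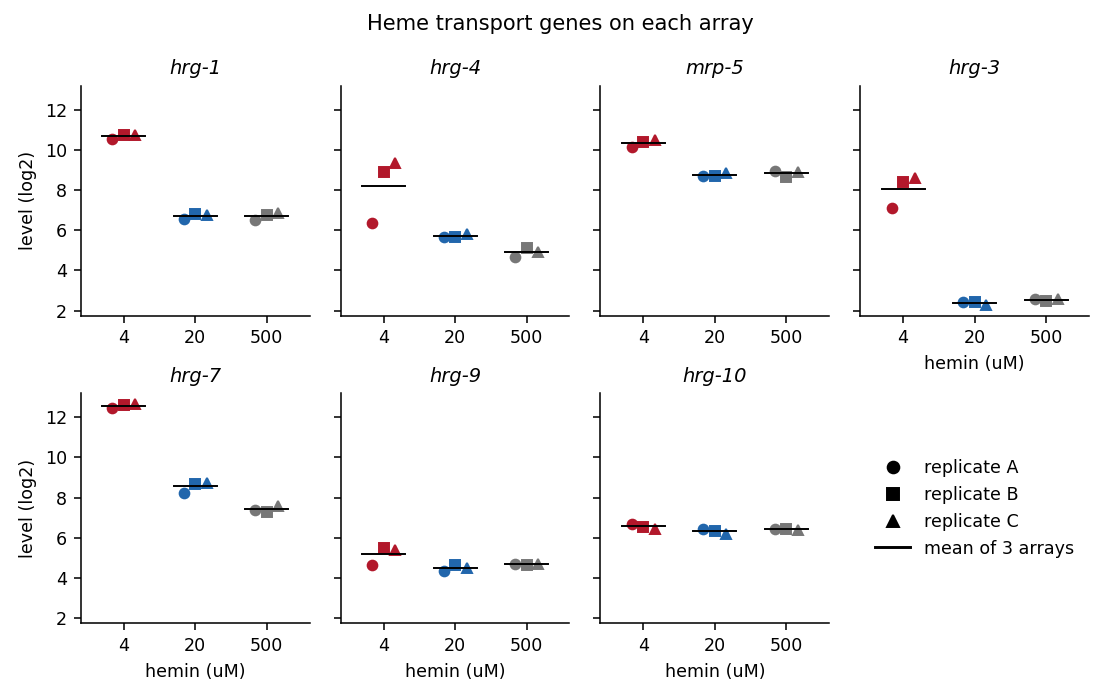
Level (log2) of the 7 heme transport genes on each of the 9 arrays at 4, 20 and 500 uM hemin, with replicates A, B and C as circles, squares and triangles and a bar at the mean of 3 arrays. Replicate A of 4 uM is the lowest of its group for *hrg-4* (6.35), *hrg-3* (7.09) and *hrg-9* (4.67), and close to B and C for *hrg-1* (10.55).

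Genes of lysosomal and gut proteases changed in both directions. These enzymes digest protein in lysosomes and in the gut lumen, and the list took all cathepsin-like and aspartic protease symbols. Of 33 measured members 29 were tested, and 6 rose and 3 fell, with the same counts without array A of 4 uM. That is 31% of those tested, against 0.911% of all sets, with a median difference of 0.12. This list too was chosen with earlier results of these data known, so the share is descriptive. When each array was left out in turn, 4 to 6 rose and 1 to 3 fell.

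The cathepsin A-like carboxypeptidase gene *ctsa-4.1* (K10B2.2) read 9.40, 9.81 and 10.07 at 4 uM, against 6.62, 7.05 and 7.08 at 20 uM. Its relative *ctsa-4.2* (Y40D12A.2) read 9.96, 10.01 and 10.17 at 4 uM, against 8.36, 8.85 and 8.67 at 20 uM. In both genes every 4 uM array lay above every 20 uM array. The rises were 2.84 (SE 0.19, adjusted p = 5.28e-05) and 1.42 (SE 0.13, adjusted p = 0.00057). The other tested *ctsa* genes, *ctsa-1.1*, *ctsa-1.2*, *ctsa-2*, *ctsa-3.1* and *ctsa-3.2*, were not called.

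The cathepsin B-like cysteine protease gene *cpr-8* (W07B8.1) read 9.58, 9.54 and 9.58 at 4 uM, against 6.90, 7.03 and 7.04 at 20 uM. The 4 uM arrays were nearly equal, replicate A included, and the rise was 2.58 (SE 0.13, adjusted p = 9.39e-06). The 500 uM arrays read 5.81, 6.07 and 6.37, below all 20 uM arrays. Its neighbour in the genome, *cpr-5* (W07B8.5), rose by 0.62 (SE 0.11, adjusted p = 0.0284), a call that needed 4 uM B and C, 20 uM A and C, and 500 uM C (0.16). In the same family *cpr-1* (C52E4.1) fell by 0.65 (SE 0.11, adjusted p = 0.0302), a call that needed 4 uM B, each 20 uM array, and 500 uM B and C (0.156). That call was also lost under 4 other settings of the processing, with an adjusted p of at most 0.0958.

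Aspartic protease genes, relatives of cathepsin D, were also split. The rise of *asp-8* (F59D6.3), with 10.58, 10.38 and 10.26 at 4 uM, against 9.22, 9.27 and 9.15 at 20 uM, was 1.19 (SE 0.16, adjusted p = 0.00667). The adjacent gene *asp-7* (F59D6.2) rose by 0.57 (SE 0.09, adjusted p = 0.0227), a call that needed 4 uM C and each 20 uM array (0.116). In contrast *asp-12* (F21F8.4) read 10.89, 10.47 and 10.14 at 4 uM, against 11.72, 11.80 and 11.68 at 20 uM. Replicate A of 4 uM was the one nearest to the 20 uM arrays, and the groups did not overlap. The fall was -1.23 (SE 0.16, adjusted p = 0.00568), and at 500 uM the level was 12.53, 12.51 and 12.28, above all 20 uM arrays. The gene *asp-14* (K10C2.3) fell by 1.44 (SE 0.21, adjusted p = 0.00922), a call that needed 4 uM B and 20 uM A and B (0.0609).

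Genes of lysosomal lipid breakdown were called in 1 direction, lower at 4 uM. The list held lysosomal acid lipases, which free fatty acids from stored lipid, and sphingomyelinases and ceramidases, which break down membrane sphingolipids. Of 13 measured members 11 were tested, 6 fell and 0 rose, in the fit of all arrays and in that without array A of 4 uM. The called share was 54.5%, against 0.231% of all sets that were lower, and the median difference was -0.63, against 0.02 over all tested sets. The list was chosen with earlier results of these data known, so its share is no independent evidence. With single arrays left out 2 to 6 members fell.

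The sphingomyelinase gene *asm-3* (W03G1.7) read 5.53, 5.04 and 4.71 at 4 uM, against 7.85, 7.54 and 7.62 at 20 uM. The lipase gene *lipl-2* (F46B6.8) read 6.10, 5.92 and 5.63 at 4 uM, against 7.24, 7.34 and 7.38 at 20 uM. Both were separate on all arrays, with replicate A of 4 uM nearest to the 20 uM group. They fell by 2.57 (SE 0.27, adjusted p = 0.00131) and by 1.44 (SE 0.15, adjusted p = 0.00126).

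Another lipase gene, *lipl-1* (F54F3.3), read 8.55, 7.77 and 7.69 at 4 uM, against 9.64, 9.45 and 9.34 at 20 uM. It fell by 1.47 (SE 0.20, adjusted p = 0.00786), and the call needed 20 uM A (0.0573) and was lost in the fit of 6 arrays (0.0591). A fall of 0.84 (SE 0.12, adjusted p = 0.00848) in *asm-2*, a second sphingomyelinase gene, needed the same array (0.0578). The lipase gene *lipl-5* fell by 0.91 (SE 0.13, adjusted p = 0.0101), and this needed each 20 uM array (0.0627). The acid ceramidase gene *asah-1* fell by 0.63 (SE 0.12, adjusted p = 0.0411), a call that needed 4 uM C and each 20 and 500 uM array (0.191). That call was also lost under 4 other settings of the processing, with an adjusted p of at most 0.15. The members not called were *lipl-3*, *lipl-6*, *lipl-7*, *asm-1* and *asah-2*, with differences of -0.38 (*lipl-6*) to 0.28 (*asah-2*).

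**Figure D3:**
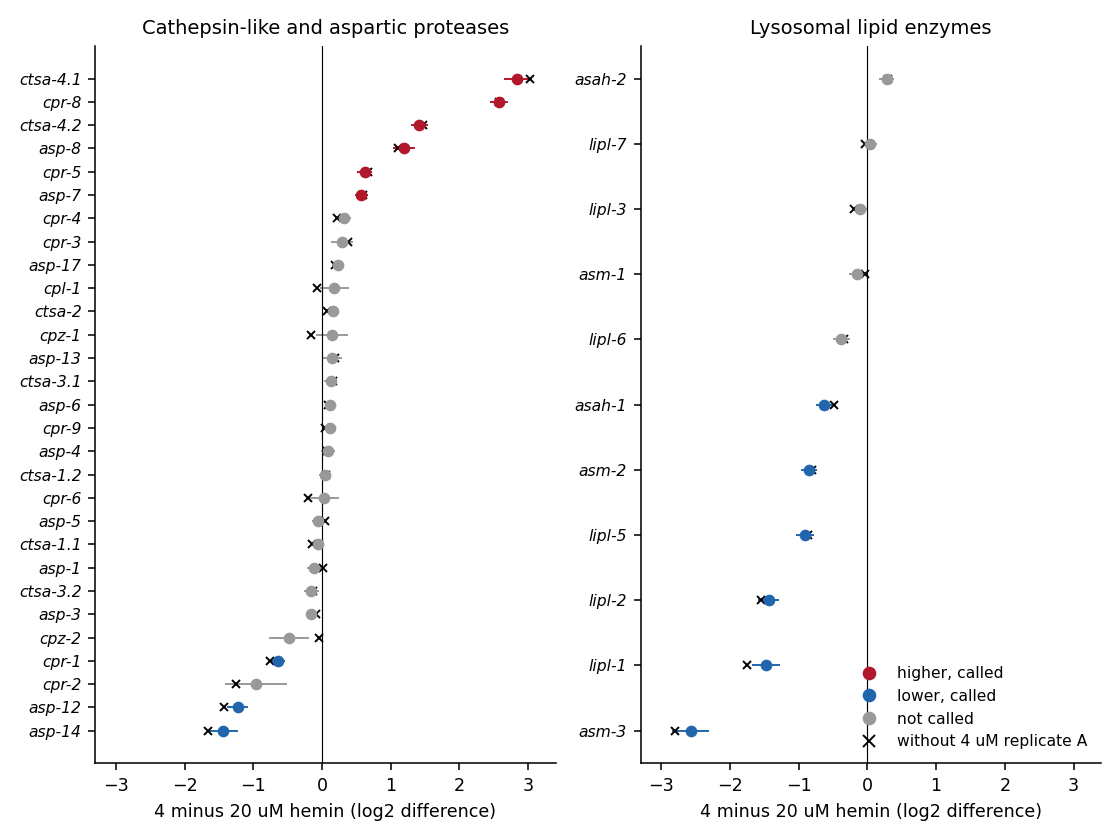
Differences between 4 and 20 uM hemin (log2, with bars of 1 SE) for the 29 tested cathepsin-like and aspartic protease genes, left, and the 11 tested lysosomal lipid genes, right. Red points rose, blue points fell, grey points were not called, and crosses give the fit without 4 uM replicate A: 6 proteases stand to the right, from 0.57 to 2.84, and 6 lipid genes to the left, from -2.57 to -0.63.

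Among the 15 largest rises of named genes, those outside these lists were a glutathione transferase, a lectin, a glucuronosyltransferase, a yolk and a collagen gene, and 5 less characterised genes. The omega-class glutathione transferase gene *gsto-1* (C29E4.7), of a family that handles thiols and oxidants, read 9.91, 10.36 and 10.70 at 4 uM, against 6.69, 6.78 and 6.80 at 20 uM. Every 4 uM array was more than 3 log2 units above every 20 uM array. The rise was 3.57 (SE 0.18, adjusted p = 9.39e-06), or 11.9-fold. The C-type lectin gene *clec-45* (F07C4.2) read 5.79, 7.10 and 7.51 at 4 uM, against 3.27, 3.33 and 3.28 at 20 uM, with replicate A the lowest at 4 uM and no overlap. It rose by 3.51 (SE 0.36, adjusted p = 0.00111), and by 4.01 (SE 0.16) without replicate A. Its 20 uM levels were below the lower quartiles of those arrays (3.700 to 3.725), so the difference may be a lower bound.

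The UDP-glucuronosyltransferase gene *ugt-17* (C08B6.1), which encodes an enzyme that attaches sugar to small lipophilic molecules, rose by 1.84 (SE 0.14, adjusted p = 0.00013). Its levels were 7.50, 7.71 and 8.02 at 4 uM, against 5.74, 6.02 and 5.96 at 20 uM. The cytochrome P450 gene *cyp-33C9* (C50H11.15), itself a heme enzyme, rose by 1.35 (SE 0.15, adjusted p = 0.00189). It was the only one called of 46 tested P450 genes (2.17%, against 0.911% of all sets). The fatty acid-binding protein gene *lbp-3* rose by 1.34 (SE 0.18, adjusted p = 0.00667). In the fit of only the 6 arrays of 4 and 20 uM its adjusted p was 0.0541.

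Among genes with no further name, R193.2 had 2 probe sets that rose by 2.0 (SE 0.24, adjusted p = 0.00327) and 2.82 (SE 0.13, adjusted p = 8.35e-06). The second set read 8.18, 8.32 and 8.40 at 4 uM, against 5.26, 5.59 and 5.59 at 20 uM, with no overlap. The adjacent genes ZK813.1 and ZK813.7 rose by 2.06 (SE 0.23, adjusted p = 0.00233) and 1.46 (SE 0.17, adjusted p = 0.00239). At 20 uM ZK813.1 read 3.53 to 3.95, near the lower quartiles of those arrays (3.700 to 3.725). The gene *tag-10* (C31C9.1) rose on both of its probe sets, by 1.95 (SE 0.21, adjusted p = 0.00144) and 1.71 (SE 0.18, adjusted p = 0.00122). Rises of 1.49 to 1.63 were found for T04G9.7 (1.63), Y54G11A.7 (1.60), C44B7.5 (1.60) and F32H5.1 (1.49). Of the 134 named genes called in either direction, 47 carried a sequence name only.

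Calls of 2 further large rises rested on many arrays. F58E6.4 differed by 2.2 (SE 0.38, adjusted p = 0.0287), a call that needed 4 uM B and each 20 and 500 uM array (0.152). Its 20 uM levels, 3.45 to 3.94, were near the lower quartiles of those arrays (3.700 to 3.725). F15B9.6 differed by 1.89 (SE 0.35, adjusted p = 0.0398), a call that needed 4 uM B and C, each 20 uM array, and 500 uM B and C (0.21). A probe set with no gene symbol had the second largest rise of all at 4.08 (SE 0.29, adjusted p = 0.00011), with 7.47, 8.66 and 8.74 at 4 uM, against 3.95, 4.40 and 4.30 at 20 uM.

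Smaller rises among genes with a known product were those of *rnr-2*, the small subunit of ribonucleotide reductase, by 1.06 (SE 0.09, adjusted p = 0.000335), and of *ncx-6*, a sodium and calcium exchanger gene, by 1.14 (SE 0.15, adjusted p = 0.00589). Of 19 tested neprilysin-like peptidase genes 3 rose (15.8%, against 0.68% of all sets). This is 1 of 136 symbol families with 10 or more tested genes, from which only called members were named. Its share is therefore descriptive. The 3 genes were *nep-17* by 0.60 (SE 0.07, adjusted p = 0.00439), *nep-8* by 1.05 (SE 0.14, adjusted p = 0.00667) and *nep-22* by 0.60 (SE 0.12, adjusted p = 0.0487). The call of *nep-8* needed 20 uM A (0.0507), and that of *nep-22* needed the 8 arrays other than 4 uM A (0.242). The *nep-22* call was also lost under 7 other settings of the processing, with an adjusted p of at most 0.152. The copper chaperone gene *cuc-1* rose by 0.69 (SE 0.13, adjusted p = 0.0425), a call that needed 4 uM B and C, each 20 uM array, and 500 uM A and C (0.177).

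The largest falls were those of the neighbouring genes *pud-3* (F15E11.15) and *pud-4* (F15E11.12), small proteins first described as more abundant in worms with low insulin signalling. The first read 7.96, 7.61 and 7.74 at 4 uM, against 11.63, 10.99 and 11.36 at 20 uM. The second read 7.86, 7.23 and 7.34 at 4 uM, against 11.23, 10.56 and 10.93 at 20 uM. On both the groups were separate by far more than the spread within either. They fell by 3.56 (SE 0.18, adjusted p = 9.39e-06) and 3.43 (SE 0.26, adjusted p = 0.000141), 11.8-fold and 10.8-fold.

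Both *pud* genes were at a level between these groups at 500 uM, with 9.08, 9.29 and 9.58 for *pud-3* and 8.45, 8.86 and 9.44 for *pud-4*. The level at 4 uM was also below that at 500 uM, by -1.55 (SE 0.18, adjusted p = 0.00161) for *pud-3* and by -1.44 (SE 0.26, adjusted p = 0.022) for *pud-4*. In that test of 4 against 500 uM 350 sets were called, 2.07% of those tested. It uses the same 4 uM arrays, so its values are set beside those against 20 uM and are not a second test. Of 14 tested genes with a pud or dct symbol these 2 were called (14.3%, against 0.911% of all sets).

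The C-type lectin gene *clec-52* (B0218.8) read 6.94, 6.03 and 5.25 at 4 uM, against 9.39, 9.15 and 9.42 at 20 uM. The 4 uM arrays were widely spread and still lay below every 20 uM array. It fell by 3.25 (SE 0.33, adjusted p = 0.00103), and at 500 uM it read 10.27, 10.37 and 10.39. Over the 130 tested C-type lectin genes 4 calls were higher and 1 was lower (3.85%, against 0.911% of all sets), with 9 higher and 6 lower without array A of 4 uM (11.5%, against 1.86%).

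Further falls were found for F49C12.7, by -1.55 (SE 0.13, adjusted p = 0.000264), *dod-3*, a gene known as a target of insulin signalling, by -1.21 (SE 0.15, adjusted p = 0.00446), and H40L08.2, by -1.04 (SE 0.11, adjusted p = 0.00133). The cysteine-rich secretory protein gene *scl-2* fell by 0.79 (SE 0.10, adjusted p = 0.00412). A probe set annotated with several genes fell by 2.01 (SE 0.11, adjusted p = 1.18e-05) and is not named. F10C2.7 read 5.32, 3.90 and 3.83 at 4 uM, against 6.04, 6.56 and 6.14 at 20 uM. On 4 uM B and C it was near the lower quartiles of those arrays (3.711 and 3.727). Its difference of -1.89 (SE 0.36, adjusted p = 0.0454) needed the 8 arrays other than 4 uM A (0.222). That of *txt-4*, -1.25 (SE 0.24, adjusted p = 0.0461), needed the 8 arrays other than 500 uM A (0.242).

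In some genes called against 20 uM the 3 groups were not ordered by dose. Y105C5B.7 read 5.33, 4.14 and 4.64 at 4 uM, 6.25, 6.07 and 6.42 at 20 uM, and 3.29, 3.26 and 3.50 at 500 uM. It was highest at 20 uM and lowest at 500 uM, with no overlap between any groups. It fell by 1.54 (SE 0.25, adjusted p = 0.0188) against 20 uM, a call that needed each 20 uM array (0.105), and was higher than at 500 uM by 1.36 (SE 0.25, adjusted p = 0.0219). F53A9.1 read 10.32, 10.29 and 10.30 at 4 uM, 9.73, 9.66 and 9.79 at 20 uM, and 10.31, 10.29 and 10.30 at 500 uM. It rose by 0.58 (SE 0.07, adjusted p = 0.00337) against 20 uM and differed from 500 uM by 0.00 (SE 0.07, adjusted p = 0.994).

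F09C8.1 was ordered by dose on its better separated probe set, with 4.65, 4.35 and 4.27 at 4 uM, 5.54, 5.63 and 5.54 at 20 uM, and 7.17, 7.30 and 6.98 at 500 uM. No groups overlapped. This set fell by 1.15 (SE 0.12, adjusted p = 0.00149) against 20 uM and was lower than at 500 uM by -2.73 (SE 0.12, adjusted p = 3.18e-06). Its other set, the brighter one, differed from 20 uM by -0.43 (SE 0.16, adjusted p = 0.449).

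Of 10 measured iron homeostasis genes 8 were tested, and 1 rose and 1 fell, 25% of those tested, against 0.911% of all sets. The ferroportin gene *fpn-1.2* (R09B5.4), of a family that exports iron from cells, read 5.89, 5.90 and 5.84 at 4 uM, against 7.08, 6.88 and 6.75 at 20 uM. The 4 uM arrays were tight and below every 20 uM array. It fell by 1.03 (SE 0.10, adjusted p = 0.000849), and the neighbouring gene *hacd-1*, of fatty acid oxidation, fell by 0.81 (SE 0.13, adjusted p = 0.0188), a call that needed 4 uM B and C and each 20 uM array (0.0935).

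The ferritin gene *ftn-1* (C54F6.14), which encodes an iron storage protein of the intestine, read 9.28, 8.25 and 7.97 at 4 uM, against 6.31, 7.21 and 7.0 at 20 uM. Replicate A of 4 uM was the highest array and 20 uM A the lowest. The rise was 1.66 (SE 0.32, adjusted p = 0.0494), and 1.27 (SE 0.23, adjusted p = 0.0232) without replicate A of 4 uM. The call needed 4 uM B and each 20 and 500 uM array (0.229), and it was lost under 6 other settings of the processing, with an adjusted p of at most 0.2. The other tested iron genes, *ftn-2*, *aco-1*, *smf-1*, *smf-3*, *frh-1* and *fpn-1.1*, had differences of -0.19 (*aco-1*) to 0.47 (*ftn-2*).

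Among 26 tested genes of heme enzymes and heme carriers the only call (3.85%, against 0.911% of all sets) was that of *ctl-2* (Y54G11A.5), a peroxisomal catalase gene. It read 9.05, 8.67 and 8.48 at 4 uM, against 9.61, 9.82 and 9.62 at 20 uM. The fall of -0.95 (SE 0.14, adjusted p = 0.0124) needed 4 uM B and 20 uM A and B (0.077), and it was not called from the 6 arrays of this comparison alone (0.0699). Its probe set is of a kind that can also match related transcripts. The remaining 25, which include cytochrome c, peroxidase and guanylate cyclase genes, lay between -0.34 (*cytb-5.1*) and 0.29 (*hpx-2*). Of 21 tested globin genes and 57 genes of the respiratory chain 0 were called in either fit, and with all arrays 0 had an unadjusted p under 0.05. The globins differed by -0.19 to 0.42 and the respiratory chain genes by -0.43 to 0.20.

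Genes of detoxification and stress followed. Of 53 tested UDP-glucuronosyltransferase genes 4 rose (*ugt-17*, *ugt-62*, *ugt-12* and *ugt-50*) and 2 fell (*ugt-53* and *ugt-66*), 11.3% in all, against 0.911% of all sets. Without array A of 4 uM 12 rose and 3 fell (28.3%, against 1.86% of all sets), and in the fit of 6 arrays, and with the replicate letter as a block, 1 rose and 0 fell. The call of *ugt-17* needed no single array. The calls of *ugt-12* and *ugt-53* needed the 8 arrays other than 4 uM A (0.226 and 0.167). That of *ugt-62* needed 4 uM B and C, each 20 uM array, and 500 uM B and C (0.187), and that of *ugt-66* needed 4 uM B and C, each 20 uM array, and 500 uM A and B (0.167). That of *ugt-50* needed 4 uM C and each 20 and 500 uM array (0.201). Of 21 superoxide dismutase, catalase, peroxidase and thioredoxin genes only *ctl-2* was called (4.76%, against 0.911% of all sets). This is the same *ctl-2* call as above, with the same limits. Of 28 chaperone genes 0 were called (6 with an unadjusted p under 0.05), with a median difference of -0.15. Without array A of 4 uM 1 chaperone gene was lower and 12 had an unadjusted p under 0.05. The farthest from 0 was the small heat shock protein gene *hsp-16.41*, which read 6.09, 3.85 and 2.52 at 4 uM, against 5.65, 5.29 and 6.93 at 20 uM, with overlapping groups (-1.8, SE 1.26, adjusted p = 0.728). Of 73 ribosomal protein genes 0 were called and 0 had an unadjusted p under 0.05, with a median of -0.01.

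Yolk, oocyte and cuticle genes were higher at 4 uM in part. Vitellogenins are yolk proteins made by the adult intestine. Of 5 genes 2 were called with all arrays and all 5 without array A of 4 uM, with a median difference of 1.93. The shares of all sets that were higher in these fits were 0.68% and 1.19%. The number of vitellogenins called was 0 when either B or C of 4 uM was removed. Removing A or B of the 20 uM group, or B of the 500 uM group, also gave 0. Quantile normalization, median centring, no filter and removing 500 uM C each gave 1. The replicate letter as a block gave 4, and array weights gave 5. The gene *vit-2* (C42D8.2) read 6.58, 7.56 and 7.36 at 4 uM, against 4.12, 4.19 and 5.34 at 20 uM. The groups did not overlap, though 20 uM C lay more than 1 log2 unit above A and B. It rose by 2.62 (SE 0.44, adjusted p = 0.0252), a call that needed 4 uM B and C, 20 uM A and B, and 500 uM B (0.15). The call of *vit-1*, which rose by 0.59 (SE 0.11, adjusted p = 0.0454), needed the 8 arrays other than 4 uM A (0.174). That call was also lost under 5 other settings of the processing, with an adjusted p of at most 0.151. Probe sets of *vit-4* and *vit-5* are of a kind that can match related sequences.

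The adult collagen gene *col-19* (ZK1193.1) read 7.41, 7.38 and 7.26 at 4 uM, against 4.45, 5.03 and 5.74 at 20 uM. The 4 uM arrays were tight, the 20 uM arrays spread, and the groups were apart. It rose by 2.28 (SE 0.32, adjusted p = 0.00874), a call that needed 20 uM B (0.057). Of 163 tested collagen genes 7 rose and 0 fell (4.29%, against 0.911% of all sets), with 13 and 1 without array A of 4 uM (8.59%, against 1.86%). In the fit of 6 arrays and without 20 uM A 1 collagen gene rose, 0 did without 20 uM B, and 3 did without 4 uM B, 500 uM B or 500 uM C. The others, *col-8*, *col-122*, *col-124*, *col-139*, *col-140* and *col-184*, rose by 0.98 to 1.81, and each of these calls needed 20 uM A and B, and in most cases other arrays too (0.21). Of 19 molting cycle genes 0 were called in either fit (3 had an unadjusted p under 0.05 with all arrays and 8 without array A of 4 uM), with a median difference of -0.12, and of -0.29 without that array.

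Of 31 tested genes of oocytes, eggshell and maternal RNA-binding proteins 7 rose and 0 fell (22.6%), with the same counts without array A of 4 uM. Over all sets 0.68% were higher with all arrays and 1.19% without that array. In the fit of 6 arrays, and in that without 20 uM A, 4 of these genes rose. The median difference was 0.51 with all arrays and 0.40 without array A of 4 uM. The largest rise was that of *perm-2* (C44B12.1), of the permeability barrier of the eggshell, with 8.35, 8.21 and 8.11 at 4 uM, against 6.26, 6.63 and 6.63 at 20 uM. It rose by 1.72 (SE 0.16, adjusted p = 0.000769), with no overlap. The neighbouring gene *perm-4* rose on 3 of its 4 probe sets, by 0.81 to 1.36, and the call of the brightest of them needed 20 uM A (0.0509). The maternal RNA-binding protein genes *pos-1* and *puf-5* rose by 0.95 (SE 0.10, adjusted p = 0.00136) and 0.75 (SE 0.10, adjusted p = 0.00627).

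The eggshell proteoglycan gene *cpg-3* rose by 1.15 (SE 0.15, adjusted p = 0.00641), with an adjusted p of 0.052 in the fit of 6 arrays. The sperm receptor gene *egg-1* rose by 0.69 (SE 0.11, adjusted p = 0.0188), a call that needed 4 uM B and each 20 uM array (0.113). That call was also lost in the fit of 6 arrays (0.052). The gene *nos-2*, of the Nanos family of germ cells, rose by 0.58 (SE 0.10, adjusted p = 0.0284), a call that needed 4 uM B and C, 20 uM A and B, and 500 uM B (0.15). That call was also lost in the fit of 6 arrays and with the replicate letter as a block (at most 0.079).

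These lists also differed between the 4 uM arrays. The mean level of the 31 oocyte genes was 8.07, 7.83 and 7.65 on 4 uM A, B and C, against 7.33, 7.34 and 7.35 on the 20 uM arrays. That of 44 tested sperm genes was 9.44, 8.77 and 8.24 at 4 uM, against 8.01, 8.30 and 8.13 at 20 uM, so 4 uM C fell within the 20 uM range. Of the sperm genes 0 were called in either fit. With all arrays 32 had an unadjusted p under 0.05 (8.7% of all tested sets did). Without array A 15 did (1944 of the 16911 tested sets did). All 44 had a difference above 0 with all arrays (54.4% of all tested sets did), and their median was 0.71, or 0.42 without array A. In the msp family of sperm proteins 23 of 23 tested genes had such a p with all arrays. Related genes can share probes, so these may not be separate observations. The mean of the 4 adult markers was 7.50, 8.17 and 8.09 at 4 uM, against 5.42, 5.44 and 6.47 at 20 uM. That of the 6 markers of the L4 stage and molt was 10.20, 9.87 and 9.46 at 4 uM, against 10.19, 10.06 and 10.01 at 20 uM. The 32 tested genes of the germ line list had 0 calls, 0 unadjusted p-values under 0.05 and a median difference of -0.04. How far the larval stage at harvest took part in the rises of yolk, oocyte and collagen genes was not tested.

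**Figure D4:**
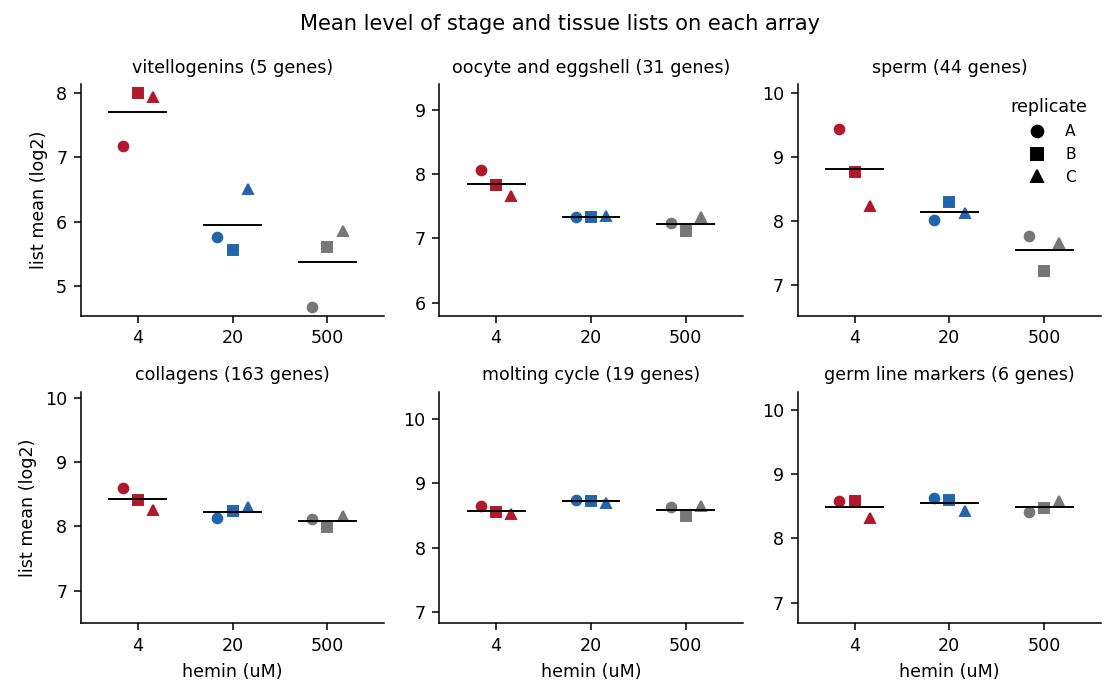
Mean level (log2) on each array, at 4, 20 and 500 uM hemin, of the tested members of 6 lists of stage and tissue, with replicates A, B and C as circles, squares and triangles and a bar at the mean of 3 arrays. Vitellogenins and oocyte genes are above the 20 uM arrays on all 4 uM arrays, the sperm genes of 4 uM C (8.24) lie within the 20 uM range, and each panel spans the same number of log2 units.

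Leaving out array A of 4 uM added 88 higher and 75 lower probe sets to the calls. In 63 of the 88 and 53 of the 75 array A lay on the same side of the 20 uM mean as B and C, and in 57 and 43 it lay beyond all 20 uM arrays. In 25 and 22 it lay on the other side of the mean. Among the 154 sets called with all arrays, A was the array nearest to the 20 uM level in 63 of 115 higher and 24 of 39 lower sets, and the farthest in 34 and 10.

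The largest rise gained in this way was that of *hrg-4*, followed by *ugt-13* (H23N18.1), which read 5.60, 7.77 and 7.34 at 4 uM, against 5.62, 4.91 and 4.88 at 20 uM. Replicate A fell within the 20 uM range. The difference was 1.77 (SE 0.46, adjusted p = 0.172) with all arrays and 2.42 (SE 0.22, adjusted p = 0.000332) without it. Also gained were *ugt-16* (1.81 without array A, SE 0.17) and *ugt-19* (1.78, SE 0.25). The remaining vitellogenin genes, *vit-4*, *vit-5* and *vit-6*, gained calls with differences of 2.36, 2.21 and 2.05.

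Among falls gained were genes of defence against microbes. Of 57 tested genes of lysozymes, saposin-like proteins, infection response and related symbols 2 fell with all arrays, *dod-3* and *spp-8*, whose call needed 4 uM B and C, each 20 uM array, and 500 uM B and C (0.15), and 10 fell and 1 rose without array A of 4 uM. Over all sets 0.231% were lower with all arrays and 0.668% without that array. The infection response gene *irg-4* (F08G5.6) read 8.16, 7.75 and 7.68 at 4 uM, 8.62, 8.84 and 8.66 at 20 uM, and 11.17, 10.48 and 10.32 at 500 uM. Its groups were ordered by dose with no overlap. The difference from 20 uM was -0.84 (SE 0.21, adjusted p = 0.146) with all arrays and -0.99 (SE 0.21, adjusted p = 0.0471) without array A. The lectin gene *clec-60* (ZK666.6) had the same order, with 6.98, 6.89 and 6.37 at 4 uM, 7.89, 8.30 and 8.22 at 20 uM, and 10.07, 9.18 and 8.89 at 500 uM. It differed from 20 uM by -1.39 (adjusted p = 0.0572) with all arrays and by -1.50 (adjusted p = 0.0389) without array A.

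Targets of the hypoxia factor HIF-1 also gained falls. Of 9 tested genes 0 fell and 1 rose (*ftn-1*) with all arrays (11.1%, against 0.68% of all sets that were higher). Without array A of 4 uM 3 fell (*phy-2*, *rhy-1* and *nhr-57*), against 0.668% of all sets. In that fit *ftn-1* rose again, against 1.19% of all sets. The list was not divided by the direction in which HIF-1 acts on a gene, and HIF-1 activity was not tested. The gene *rhy-1* (W07A12.7), a regulator of HIF-1, read 8.39, 7.38 and 7.55 at 4 uM, against 8.21, 8.30 and 8.64 at 20 uM. Replicate A lay among the 20 uM arrays and B and C below them. Its difference was -0.61 (SE 0.25, adjusted p = 0.53) with all arrays and -0.92 (SE 0.18, adjusted p = 0.0344) without A. Another gained fall, that of T22B7.3 by -1.0 (SE 0.11, adjusted p = 0.00129) without A, was at the 500 uM level at 4 uM, with a difference of -0.01 (SE 0.16) between 4 and 500 uM.

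**Figure D5:**
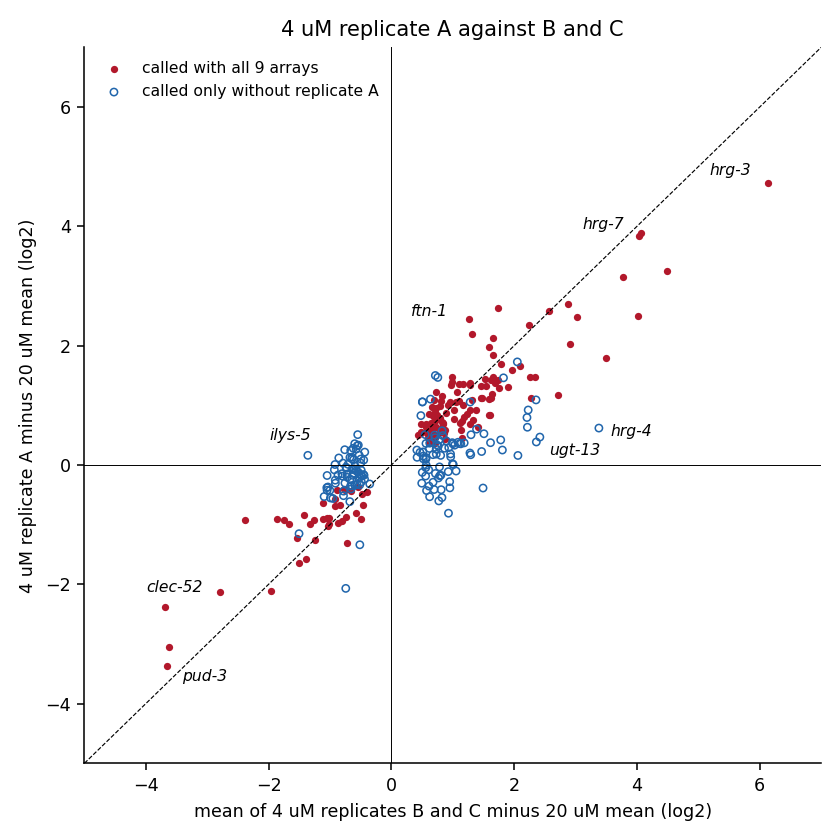
Difference of 4 uM replicate A from the 20 uM mean (log2, vertical) against that of the mean of replicates B and C (log2, horizontal), for the probe sets called with all 9 arrays (red) and those called only without replicate A (open blue), with a dashed line of equality. Most red points lie along the line, while of the blue points 25 higher and 22 lower sets lie on the other side of 0 from B and C, and *hrg-4* lies close to 0 on the vertical axis.

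Some calls were shared by several probe sets of a gene or by neighbouring genes. Of 19 called genes with more than 1 tested probe set, 18 had the same sign on all of them, and in 7 all sets were called. Adjacent genes called the same way were *perm-4* and *perm-2*, *cpr-5* and *cpr-8*, *asp-8* and *asp-7*, C02E7.7 and C02E7.6, and ZK813.7 and ZK813.1 among rises, and *hacd-1* and *fpn-1.2*, and *pud-3* and *pud-4* among falls. The calls of C02E7.7 and C02E7.6 needed 4 uM C, each 20 uM array and 500 uM C, and that of C02E7.7 also 4 uM B (0.183 and 0.21). Related neighbours can share probes or transcripts, which the files do not resolve.

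Lists with 0 calls in the fit of all arrays included copper and zinc transporters (24 tested, 1 with an unadjusted p under 0.05), short-chain dehydrogenases (30 and 9), hedgehog-related proteins (69 and 13), histones (25 and 6), insulin-like peptides (26 and 0), neuropeptides (77 and 2), F-box and MATH proteins (151 and 12) and chemoreceptors (328 and 13, of 1330 measured). Without array A of 4 uM 2 hedgehog-related genes and 1 short-chain dehydrogenase gene were lower, 1 histone and 1 neuropeptide gene were higher, 2 F-box or MATH genes were higher and 1 lower, and 1 chemoreceptor gene was called each way. Neuropeptide genes with an unadjusted p under 0.05 then numbered 19. Metallothionein and cadmium response genes had 0 calls of 6 (1 higher without array A of 4 uM), with 4 unadjusted p-values under 0.05, and *mtl-1*, a metallothionein gene, read 5.94, 6.49 and 6.52 at 4 uM, against 7.19, 7.14 and 7.0 at 20 uM. Its groups did not overlap, with a difference of -0.79 (SE 0.17) that missed the threshold (adjusted p = 0.0918). Of 203 tested nuclear hormone receptor genes *nhr-202* alone was called (0.493%, against 0.911% of all sets). It differed by 0.95 (SE 0.17, adjusted p = 0.0303), a call that needed 4 uM B and C, each 20 uM array, and 500 uM A and B (0.168).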

How the data were processed

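RNA of 9 cultures, 3 biological replicates per hemin concentration, was measured on Affymetrix whole genome arrays. The table deposited by the authors holds log2 values, 1 for each probe set on each array, on a scale that is alike between arrays. MAS5 and RMA are both named, per the submitters' processing notes, and the one used for the table is not given in the sources used. All values lay between 2.02 and 14.37. Detection calls and scan dates were not used here, and arrays carry no read depth, so the number of arrays limits the precision: the median SE of a difference was 0.12.

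Of 22625 probe sets 77 controls and the dimmest 25% of the rest by mean over 9 arrays were left out, which left 16911. Gene names came from the platform annotation: 20766 probe sets had 1 symbol, 887 several and 895 none, and sets with several were not named. Current gene names and gene order came from RefSeq (WBcel235), with 20701 matches by Entrez identifier. The brightest set by mean stood for a gene with several. Suffixes of probe set names mark those that can match related transcripts.

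One mean per concentration was fitted over 9 arrays with limma 3.58.1 in R 4.3.3 (lmFit, eBayes with a trend, 6 residual degrees of freedom), with contrasts 4 minus 20 and 4 minus 500 uM, two-sided, Benjamini-Hochberg adjusted within a contrast, threshold 0.05. Simulated data with known changes were used to test the limma step. Alternatives were other normalizations, filters, priors, array weights, the replicate letter as a block, the 6 arrays alone, a fold threshold and leaving out each array; fits that combine the removal of 4 uM A with another setting were chosen after seeing the data. The comparison, the 48 lists and the members were chosen with earlier results of these data known.

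Named genes were the 15 largest rises and falls called, the 10 largest of each called only without 4 uM A, the called genes of heme and iron lists, up to 4 genes with the smallest p of each other list, and up to 4 called genes of each family of 10 or more. Other named genes were chosen after their values were seen. The replicate letters were checked as pairs: deviations from group means correlated by -0.06, -0.05 and 0.17 between 4 and 20 uM arrays of the same letter. With the 500 uM arrays included, correlations ran from -0.15 to 0.29 for arrays of the same letter and from -0.33 to 0.31 for different letters. The letters were therefore not taken to pair samples. Python 3.11.15, pandas 2.3.3 and matplotlib 3.10.9 were used for summaries and plots.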

Additional observations from a re-analysis of the deposited data

How the results depend on the processing

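The 154 probe sets called between 4 and 20 uM became 86 with only those 6 arrays and 899 with array weights. With 1 array left out the count ran from 69 (without 20 uM A) to 315 (without 4 uM A), and it was 78 without 20 uM B and 92 without 4 uM B. Settings chosen after seeing the data gave 249 (those 6 arrays without 4 uM A) and 313 (quantile normalization without 4 uM A). Quantile normalization (127), median centring (138), no filter (148), the dimmest 50% left out (128), a prior with no trend (147), a robust prior (154) and a threshold of 1.6-fold (123) moved it by less than 1.5 times. For 4 against 500 uM the main 350 became 159 with 6 arrays and 813 with array weights, and 168 (without 4 uM B) to 682 (without 4 uM C) with 1 array left out. The array titles give the letters A, B and C and do not say what arrays of a letter share. With the letters as a replicate block 148 sets were called (111 higher, 37 lower).

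Differences were recomputed for 226 genes: those called (129 on their brightest set), those named by the rule with an unadjusted p under 0.05, and 7 other list members; 0 changed sign under any setting that was run. Calls lost numbered 65 with 6 arrays, 34 with the replicate block, 27 and 26 under quantile normalization and centring, 2 without 4 uM A and up to 74 without another array. Array weights lost 0 and added 64. Of the lists, the 4 called heme transport genes were 3 to 6 under all settings, oocyte genes 4 to 19, vitellogenins 0 to 5 and UDP-glucuronosyltransferase rises 1 to 13, with array weights at the upper end of each range. The causes were not tested. The number of arrays, not a read depth, limits the precision.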
